A study of Rattus norvegicus with 15 samples.

Results

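The miR-29 family on the panel consisted of rno-miR-29a, rno-miR-29b and rno-miR-29c, which are 3 of its 420 rat miRNA probes. They were chosen by probe name alone, and no probe for the opposite arm of their hairpins was on the panel. Levels were measured by nCounter, a method that ligates a tag to every miRNA molecule and reads it out, molecule by molecule, through a fluorescent barcode and without amplification. The study asked how the miRNAs of adult Sprague Dawley rat cardiomyocytes differ after doxorubicin (DOX), an anthracycline that injures heart muscle, and after myocardial infarction (MI).

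The 15 samples form 5 groups of 3, with 1 lane per sample. Healthy cardiomyocytes received DOX in vitro for 6 h, and their controls received saline vehicle in vitro for 6 h. The remaining cells were isolated from hearts of rats in which repeated DOX injections served to bring on failure, from hearts 4 weeks after ligation of the left coronary artery, and from hearts of healthy age-matched controls. All cells were then plated for 1 h on laminin so that detached cells were discarded, and RNA was taken from those still attached. The labels used here give no DOX dose and do not say which region of the infarcted hearts was used. Nor do they state that the 3 samples of a group are different animals or different cultures. The p-values below therefore cover no more than the scatter among these samples, which may be technical.

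MiR-29 miRNAs pair with the messages of collagens, elastin, fibrillin and other matrix proteins and lower their output. In the mouse heart the family is known to be more abundant in fibroblasts than in cardiomyocytes and to fall beside an infarct, where collagen is laid down. The members are made from a pair of gene clusters, each holding a copy of miR-29b.

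The mature sequences are shown because the members share their seed, which sets most of the target choice, and differ outside it. They are the RefSeq entries of the GRCr8 rat assembly, written 5′ to 3′ with the seed (bases 2 to 8) in capitals.
rno-miR-29a: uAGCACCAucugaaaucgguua
rno-miR-29b: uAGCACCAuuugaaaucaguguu
rno-miR-29c: uAGCACCAuuugaaaucgguua
All 3 panel names matched an entry, in each case the 3p arm. Of the 693 mature rat miRNA names in the RefSeq table, these 3 and no other carry the seed AGCACCA. Counting from 1 at the 5′ end, miR-29c differs from miR-29a only by C10U. MiR-29b differs from miR-29a by C10U, G18A, U21G and A22U and is 1 base longer. Going from miR-29b to miR-29c, the changes are A18G, G21U and U22A. In human cells, uracils in the middle of the mature sequence are known to be needed for the rapid turnover of miR-29b, and the closing bases of miR-29b are known to carry it into the nucleus. How far the probes of such similar molecules detect each other cannot be read from the counts, so the split between members carries that uncertainty.

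On chromosome 4 the minus strand holds the mature miR-29a at chr4:60617968-60617989, within Mir29a, and the mature miR-29b at chr4:60618342-60618364, within Mir29b1, with 352 bases between them. On chromosome 13 the plus strand holds miR-29b again at chr13:109098882-109098904, within Mir29b2, and miR-29c at chr13:109099412-109099433, within Mir29c, with 507 bases between them. The counts of miR-29b therefore sum the products of Mir29b1 and Mir29b2, which cannot be told apart here.

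The lanes held 36977 to 137746 miRNA counts, and each of the 3 members exceeded the background in all 15 lanes. That background is the mean plus 2 SD of the 8 negative-control probes of a lane. Lanes of DOX in vitro were on a cartridge of their own and the other 12 lanes on another, so for DOX in vitro against vehicle the treatment and the cartridge cannot be told apart. Over all tested miRNAs, the sample farthest from the others of its own group was sample 3 for DOX in vitro, sample 1 for the DOX-injected hearts and sample 3 for MI. The 5 cardiomyocyte miRNAs on the panel (miR-1, miR-133a, miR-133b, miR-208 and miR-499) lay above background in every lane and summed to 220316 to 354779 CPM. Among markers of other cells, the endothelial miR-126 was above background in every lane, at 20104 to 131043 CPM, while the erythroid miR-451 and miR-144 were above it in none.

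Levels below are CPM, counts scaled to the same lane total of miRNA counts with TMM factors, and a member was called when its adjusted p from edgeR was under 0.05. Together the members made up 3.54% ± 1.98 of a lane's miRNA counts with DOX in vitro, 12.5% ± 0.183 in vehicle cells, 5.95% ± 3.11 in DOX-injected hearts, 8.10% ± 0.578 after MI and 10.7% ± 0.216 in age-matched controls (SD, n = 3 each). The exact 95% binomial intervals of the single lanes were as narrow as 2.23% to 2.45% for the lowest lane and 12.5% to 12.9% for the highest, and they cover counting error only.

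**Figure D1:**
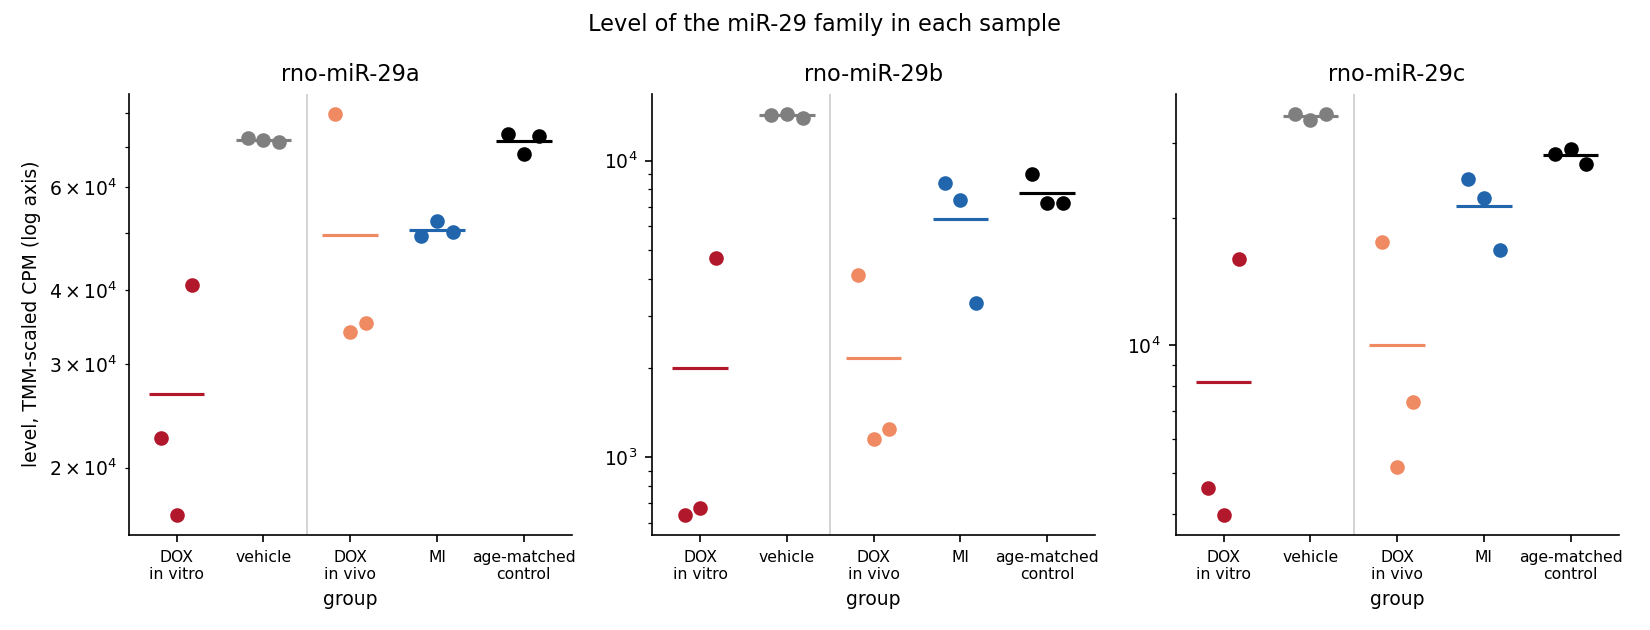
Level of each miR-29 member in every sample, in TMM-scaled CPM on a log axis with a range of its own per panel. Points are samples 1 to 3 of a group from left to right, and the bar is the group mean. In all 3 panels the samples of DOX in vitro lie below those of vehicle, and sample 1 of the DOX-injected hearts lies above the other two of its group.

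MiR-29a was the most abundant member in every lane. It stood second of the 420 probes in all 3 vehicle lanes, and between rank 6 and rank 13 with DOX in vitro. All 3 members had the same order of group means, with vehicle highest, then age-matched controls, MI, DOX-injected hearts and DOX in vitro. Neighbours in that order often overlapped. For miR-29a the only neighbours whose samples did not overlap were age-matched controls and MI. For miR-29b they were vehicle and age-matched controls, and for miR-29c both of these pairs.

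The first comparison asked what DOX does to isolated cardiomyocytes within 6 h, against saline. All 3 members fell, miR-29b by the most and miR-29a by the least, with 95% intervals that overlap. Against a background of 30.3% of the 109 tested miRNAs called in either direction, and 13.8% called as lower, 3 of 3 members were called as lower. The groups did not overlap for any of the 3 members, which held for 46.8% of all tested miRNAs.

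MiR-29a had 22430, 16623 and 40860 CPM in samples 1, 2 and 3 of DOX in vitro, against 72654, 72071 and 71586 CPM in vehicle samples. The vehicle samples were nearly the same, while the DOX samples spread widely below them. The log2 change was -1.44 (SE 0.32, 95% interval -2.10 to -0.77), a level 2.71-fold lower, with an adjusted p of 0.00327.

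MiR-29c, transcribed with the second copy of miR-29b, had 4592, 3974 and 15954 CPM with DOX in vitro, against 35273, 34003 and 35261 CPM in vehicle cells. The DOX sample numbered 3 was more than 3 times as high as the other two and still under every vehicle sample. The log2 change was -2.09 (SE 0.50, 95% interval -3.17 to -1.01), a 4.26-fold lower level with an adjusted p of 0.00724.

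MiR-29b had 640, 675 and 4682 CPM with DOX in vitro, against 14245, 14400 and 13928 CPM in vehicle cells. In the first and second DOX samples it was represented by 57 and 53 counts, only 1.31 and 1.27 times the lane background, so its level there is near the limit of the assay. The log2 change of -2.82 (SE 0.76, 95% interval -4.48 to -1.16) was the lowest of the 109 tested miRNAs, at an adjusted p of 0.0153, and corresponds to a 7.06-fold lower level.

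The size of these changes depended on sample 3 of DOX in vitro. Leaving it out gave -1.88 for miR-29a, -4.43 for miR-29b and -3.02 for miR-29c on the log2 scale, all called, as were 69 of the 109 tested miRNAs in that fit. Without sample 1 or sample 2 instead, miR-29b was at -2.40 and -2.41 and was no longer called (adjusted p 0.0574 and 0.0682). Those fits called 17 and 21 of the 109 tested miRNAs. With counts scaled to the positive controls, none of the 3 was called, at -1.62, -2.79 and -2.16, with adjusted p between 0.220 and 0.226. Only 1 of the 109 tested miRNAs was called with that scaling. When the model held no other group, miR-29a was called and the other members were not, and 10.1% of the tested miRNAs were called. With the lane background subtracted, miR-29b was at -2.87 and was not called (adjusted p 0.0795), while 26 of the 109 tested miRNAs were.

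Other cells' markers differed between these groups as well, and their part in the change was not tested. The fibroblast list summed to 4458 to 6410 CPM with DOX in vitro and to 6547 to 7210 CPM in vehicle cells. Of its 4 miRNAs, miR-214 was above background in no lane of either group, and miR-199a-5p in 1 of the 3 lanes of DOX in vitro. The called ones went opposite ways, miR-21 at -0.87 (SE 0.31, adjusted p 0.0391) and miR-199a-3p at 0.69 (SE 0.26, adjusted p 0.0455). The leukocyte list summed to 8058 to 40180 CPM with DOX in vitro and to 9968 to 10947 CPM in vehicle cells, and its sum rested on miR-146a and miR-150. Of the 5 leukocyte miRNAs, miR-142-3p, miR-142-5p and miR-223 were above background in no lane of either group. The endothelial miR-126 had 70925 to 92753 CPM with DOX in vitro and 66721 to 70808 CPM in vehicle cells, and was not called. The smooth muscle pair of miR-143 and miR-145 summed to 47501 to 98692 CPM with DOX in vitro and to 46348 to 50709 CPM in vehicle cells, and miR-143 alone fell, at -1.34 (SE 0.34, adjusted p 0.00504). The cardiomyocyte list summed to 221999 to 345509 CPM with DOX in vitro, on both sides of the 281067 to 295120 CPM in vehicle cells. Of its 5 miRNAs 1 was called, miR-133b at -1.69 (SE 0.31, adjusted p 0.000618). With DOX in vitro miR-133b held 47 to 107 counts, where the lane backgrounds were 41.7 to 44.8. Its lowest level there is near the limit of the assay. These are bulk samples, in which fewer cells of a type and less RNA per cell cannot be told apart.

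The next comparison asked how cardiomyocytes of DOX-injected hearts differ from those of age-matched controls. None of the 3 members passed the test in the fit of all samples, where 3.67% of the tested miRNAs were called. At an unadjusted p under 0.05, miR-29b and miR-29c passed, as did 25.7% of all tested miRNAs. The groups of both members did not overlap, which held for 33.9% of all tested miRNAs.

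MiR-29c had 17507, 5156 and 7327 CPM in the DOX-injected hearts, against 28300, 29137 and 26800 CPM in age-matched controls. All 3 DOX samples were below all 3 controls, the first by the least. The log2 change was -1.49 (SE 0.49, 95% interval -2.55 to -0.43) with an adjusted p of 0.0847.

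MiR-29b had 4110, 1152 and 1246 CPM in the DOX-injected hearts, against 9021, 7181 and 7206 CPM in age-matched controls. DOX samples 2 and 3 held 84 and 75 counts, 2.24 and 1.83 times their lane background. Its log2 change of -1.83 (SE 0.74, 95% interval -3.44 to -0.22, adjusted p 0.150) was the lowest of the 109 tested miRNAs in this comparison too.

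MiR-29a had 79891, 34024 and 35274 CPM in the DOX-injected hearts, against 73789, 68219 and 73111 CPM in age-matched controls. The first DOX sample was above every control, and the other two were below all of them. The log2 change was -0.53 (SE 0.32, 95% interval -1.18 to 0.12) with an adjusted p of 0.267.

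The calls depended on sample 1 of the DOX-injected hearts. Without it all 3 members were lower at adjusted p of 0.0184, 0.0360 and 0.00529, with log2 changes of -1.05 for miR-29a, -2.70 for miR-29b and -2.17 for miR-29c. That fit called 21 of the 109 tested miRNAs, against 4 with the sample in. Over the 6 fits that each left out 1 sample, the adjusted p reached 0.683, 0.306 and 0.285 for the same members. With another scaling or model, 0 to 2 members were called, beside 0.917% to 26.6% of the tested miRNAs, and with positive-control scaling miR-29a was at 0.11. The fibroblast list summed to 2758 to 4767 CPM in the DOX-injected hearts and to 4373 to 4734 CPM in age-matched controls, with miR-199a-5p and miR-214 of its 4 miRNAs above background in no lane of either group. The leukocyte list summed to 13741 to 24383 CPM in the DOX-injected hearts and to 5656 to 5868 CPM in age-matched controls, again with 2 of 5 miRNAs above background. MiR-126 had 22364 to 39485 CPM in the DOX-injected hearts and 20104 to 22102 CPM in age-matched controls. The cardiomyocyte list summed to 252684 to 352363 CPM in the DOX-injected hearts and to 352362 to 354779 CPM in age-matched controls, and the smooth muscle pair to 54900 to 104746 CPM and to 52586 to 60285 CPM in the same groups. The part of these cells in the values above was not tested.

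**Figure D2:**
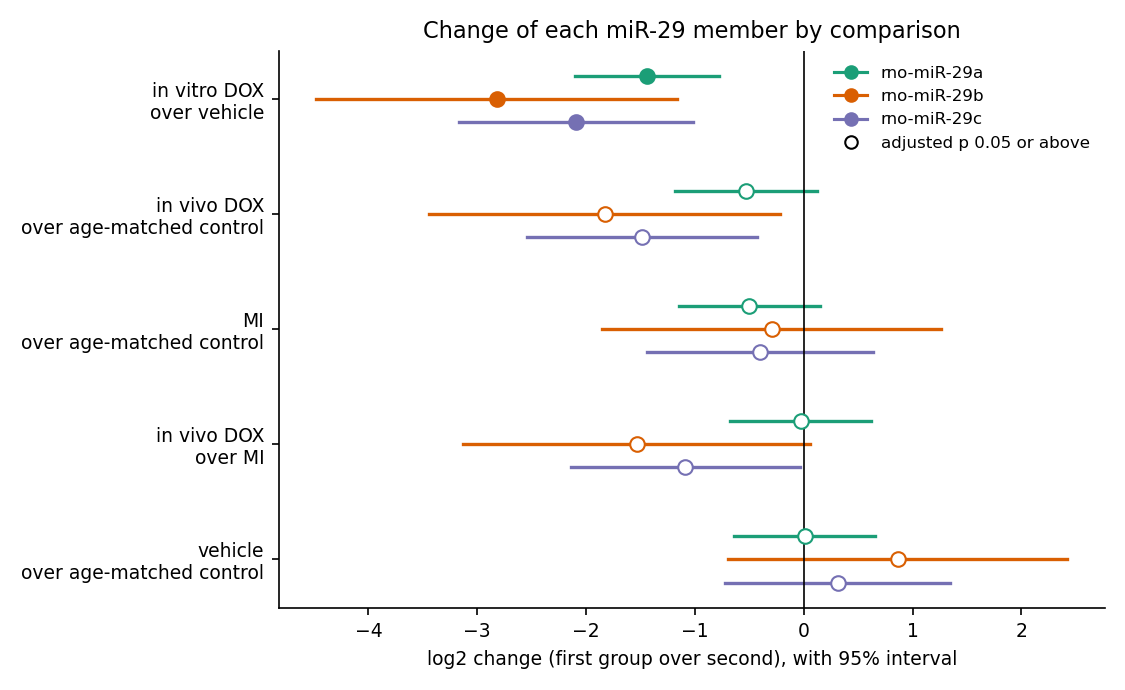
Log2 change of each member, first group over second, with its 95% interval from the edgeR fit of all 15 samples. Filled points have an adjusted p under 0.05. Only the 3 changes of DOX in vitro over vehicle, at -1.44, -2.82 and -2.09, are filled.

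The authors' deposited table, which gives group means after quantile normalization and the p of a test without adjustment, holds the same members. For DOX in vitro and vehicle, the authors' deposited table gives means of 2561 and 7779 for miR-29a (p = 0.000926), 194.7 and 1412 for miR-29b (p = 0.000917), and 750.1 and 2893 for miR-29c (p = 0.002). For DOX-injected hearts and age-matched controls, the authors' deposited table gives 4339 and 7263 for miR-29a (p = 0.064), 249.7 and 746.9 for miR-29b (p = 0.00695), and 866.7 and 2893 for miR-29c (p = 0.0011). By that p, miR-29c, miR-29b and miR-29a stood at ranks 2, 11 and 49 of 420 probes in the authors' deposited table for this comparison.

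MI was compared with the same age-matched controls, which the comparison of DOX-injected hearts shares. None of the 3 members was called, while 37.6% of the tested miRNAs were. The groups did not overlap for miR-29a and miR-29c, against 57.8% of all tested miRNAs.

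MiR-29a had 49453, 52421 and 50316 CPM after MI, against 73789, 68219 and 73111 CPM in age-matched controls. Both groups were tight, and every MI sample lay below every control. The log2 change was -0.50 (SE 0.32, 95% interval -1.15 to 0.15, adjusted p 0.243).

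MiR-29c had 24715, 22292 and 16818 CPM after MI, against 28300, 29137 and 26800 CPM in age-matched controls, a log2 change of -0.40 (SE 0.49, adjusted p 0.598). MiR-29b had 8421, 7349 and 3316 CPM after MI, against 9021, 7181 and 7206 CPM in age-matched controls, a log2 change of -0.29 (SE 0.71, adjusted p 0.807). For both members MI sample 3 was the lowest, and without it miR-29b was at 0.02 and miR-29c at -0.26. The interval for miR-29b, from -1.85 to 1.27, leaves room for changes of more than 2-fold in either direction. The authors' deposited table gives means for MI and age-matched controls of 5741 and 7263 for miR-29a (p = 0.0994), 612.8 and 746.9 for miR-29b (p = 0.421), and 1873 and 2893 for miR-29c (p = 0.022).

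These MI values depend on the scaling. The positive controls of the MI lanes summed to 4229 to 9661 counts, against 10053 to 18360 in age-matched controls, and scaling to them turned the log2 changes to 0.80, 1.04 and 0.92 for miR-29a, miR-29b and miR-29c. Cell markers differed in this comparison too. The cardiomyocyte list summed to 220316 to 312479 CPM after MI, below the 352362 to 354779 CPM in age-matched controls in every sample. The fibroblast list summed to 9551 to 13398 CPM after MI and to 4373 to 4734 CPM in age-matched controls, with miR-21, miR-199a-5p and miR-199a-3p of its 4 miRNAs above background in every MI lane. The endothelial miR-126 had 46623 to 131043 CPM after MI and 20104 to 22102 CPM in age-matched controls. The leukocyte list summed to 5361 to 17195 CPM after MI and to 5656 to 5868 CPM in age-matched controls. Their part in the levels of miR-29 was not tested.

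DOX-injected hearts were also set against MI hearts, the other model of failure. None of the 3 members was called, against a background of 32.1% of tested miRNAs, and all 3 overlapped, while 38.5% of tested miRNAs did not. The log2 change was -1.54 for miR-29b (SE 0.73, 95% interval -3.13 to 0.06, adjusted p 0.119) and -1.09 for miR-29c (SE 0.49, 95% interval -2.14 to -0.04, adjusted p 0.0963). For miR-29a it was -0.03 (SE 0.32, 95% interval -0.68 to 0.62, adjusted p 0.966). Without sample 1 of the DOX-injected hearts, miR-29b at -2.41 and miR-29c at -1.77 were called, at adjusted p of 0.0259 and 0.00422, among 53 of the 109 tested miRNAs. Over the 6 fits that each left out 1 sample, their adjusted p reached 0.278 and 0.252.

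Vehicle cells and age-matched controls are both uninjured, the first after 6 h in culture. The samples of miR-29a overlapped, with a log2 difference of 0.01 (SE 0.32, 95% interval -0.64 to 0.66). The log2 difference was 0.86 for miR-29b (SE 0.71, adjusted p 0.446) and 0.31 for miR-29c (SE 0.48, adjusted p 0.680), and in both members every vehicle sample was above every control. None of the 3 was called, against 18.3% of tested miRNAs. The groups did not overlap for 2 of 3 members, against 67.0% of tested miRNAs.

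The difference between the DOX effect in hearts and that in culture was tested as 1 term. It was 0.91 for miR-29a (SE 0.45, 95% interval -0.01 to 1.83, adjusted p 0.522), 0.99 for miR-29b (SE 1.01, adjusted p 0.891) and 0.60 for miR-29c (SE 0.69, adjusted p 0.891). None of the 3 was called, as 0.917% of tested miRNAs were. Without sample 3 of DOX in vitro the 3 terms were 1.36, 2.61 and 1.54 and all were called, among 11 of the 109 tested miRNAs, so this test turned on 1 sample. Over the 12 fits that each left out 1 sample, the term of miR-29c went as low as -0.08, without sample 1 of the DOX-injected hearts.

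The ratio of 2 members within a lane does not depend on how lanes are scaled. Each was compared by an exact two-sided permutation test over the 20 ways to split 3 and 3 samples, which cannot give a p under 0.1. There were 15 such tests, and the Benjamini-Hochberg value at that smallest p was 0.136. No ratio can therefore pass the threshold, and the values describe these samples.

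**Figure D3:**
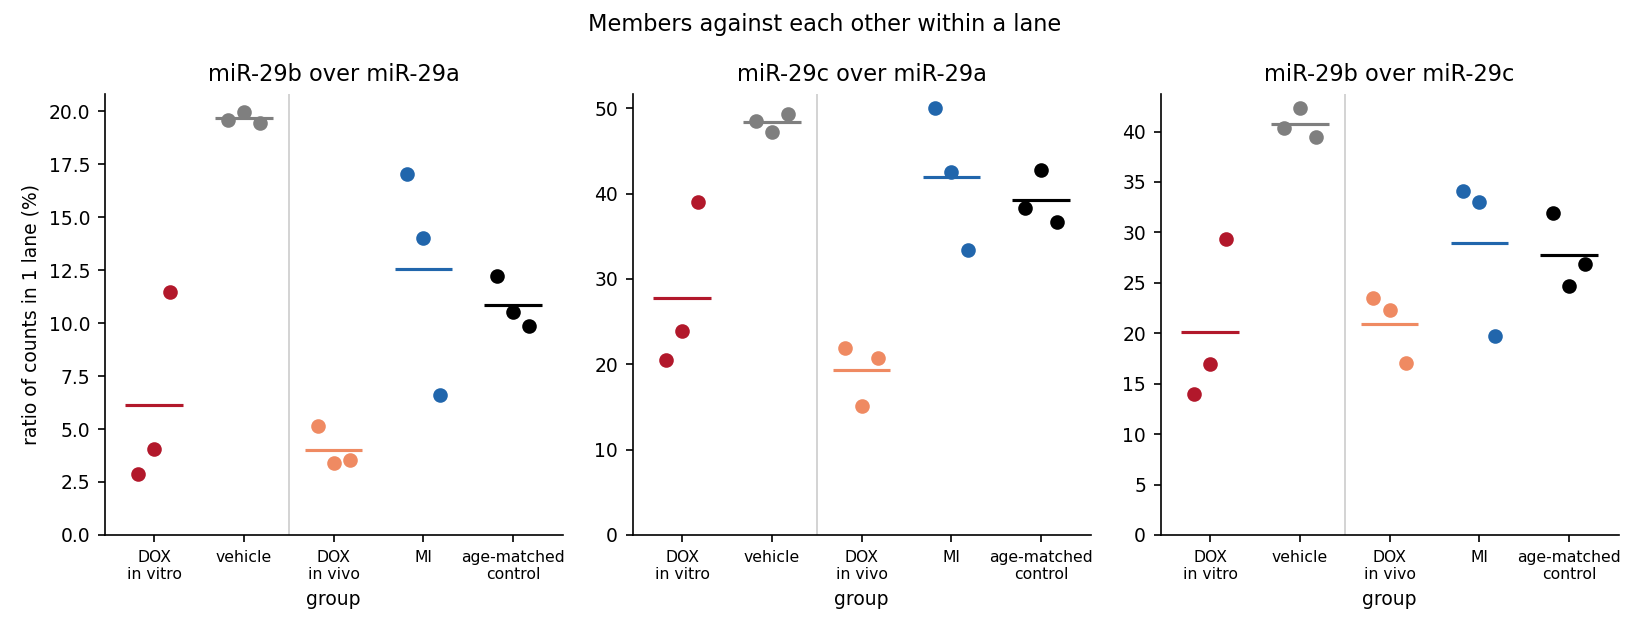
Ratio of the counts of 2 members in the same lane, in percent, for every sample. Points are samples 1 to 3 of a group from left to right, and the bar is the mean. The ratio of miR-29b to miR-29a lies between 19.5% and 20.0% in vehicle lanes and between 2.85% and 11.5% with DOX in vitro. It lies between 3.39% and 5.14% in DOX-injected hearts and between 9.86% and 12.2% in age-matched controls. After MI it runs from 6.59% to 17.0%.

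MiR-29b stood at 2.85%, 4.06% and 11.5% of miR-29a in the lanes of DOX in vitro, against 19.6%, 20.0% and 19.5% in vehicle lanes. The log2 ratio was lower by a difference of -1.95 (exact permutation p = 0.1). In the lanes of DOX-injected hearts it stood at 5.14%, 3.39% and 3.53%, against 12.2%, 10.5% and 9.86% in those of age-matched controls, a difference of -1.46 (exact permutation p = 0.1). After MI it was 17.0%, 14.0% and 6.59%, on both sides of the same controls, a difference of 0.10 (exact permutation p = 0.9). So in both DOX comparisons, but not after MI, the groups did not overlap.

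MiR-29c, which differs from miR-29a by a single base, showed the same order. It stood at 20.5%, 23.9% and 39.0% of miR-29a with DOX in vitro, against 48.5%, 47.2% and 49.3% in vehicle lanes, a log2 difference of -0.85 (exact permutation p = 0.1). In DOX-injected hearts it stood at 21.9%, 15.2% and 20.8%, against 38.4%, 42.7% and 36.7% in age-matched controls, a log2 difference of -1.04 (exact permutation p = 0.1). After MI the ratio was 50.0%, 42.5% and 33.4%, overlapping the controls, with a difference of 0.08 (exact permutation p = 0.7).

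The ratio of miR-29b to miR-29c was lower by a log2 difference of -1.09 with DOX in vitro and of -0.41 in DOX-injected hearts, and the groups did not overlap in either (exact permutation p = 0.1 each). After MI the difference was 0.02 (exact permutation p = 0.9). Without the sample that stood apart in each, miR-29b over miR-29a differed by -2.53 with DOX in vitro, -1.65 in DOX-injected hearts and 0.51 after MI. All 3 ratios separated the groups in both DOX comparisons. Among all 5886 pairs of tested miRNAs, the ratio separated the groups for 43.7% with DOX in vitro, 34.7% in DOX-injected hearts and 56.3% after MI. Between DOX-injected hearts and MI, the ratios of miR-29b and miR-29c to miR-29a did not overlap, with log2 differences of -1.56 and -1.12 (exact permutation p = 0.1 each), against 42.9% of pairs. All 3 ratios also separated vehicle from age-matched controls, with log2 differences of 0.86, 0.30 and 0.56 for miR-29b over miR-29a, miR-29c over miR-29a and miR-29b over miR-29c, as did 61.0% of pairs.

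The members moved together across the 15 samples. As a description over lanes that share depth and group, Pearson's r of the log2 levels was 0.99 between miR-29b and miR-29c, 0.92 between miR-29a and miR-29c, and 0.89 between miR-29a and miR-29b. The pair with the highest value shares the cluster on chromosome 13, while miR-29a and miR-29b, with the lowest, share that on chromosome 4. With the group means removed, r was 0.96, 0.94 and 0.87 for the same pairs.

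Among the 106 tested miRNAs outside the family, the 5 whose log2 level was most like the members' mean were miR-30a (r = 0.98 over 15 samples), miR-30e (0.97), miR-499 (0.94), miR-143 (0.92) and miR-210 (0.92). The miRNAs least like it were let-7c (-0.88), miR-23b (-0.86) and let-7b (-0.86). In sample 2 of DOX in vitro, miR-30e and miR-210 had 140 and 153 CPM, under the 197 CPM mean of the negative controls. Their r therefore includes values at the limit of the assay. MiR-499 lies within a myosin gene and marks heart muscle, miR-143 marks smooth muscle, and miR-210 is known for its rise under low oxygen. With the group means removed, r was 0.97 for miR-30a and miR-499, 0.96 for miR-30e, 0.85 for miR-143 and 0.74 for miR-210. It was -0.87 for miR-23b, -0.80 for let-7c and -0.74 for let-7b. These miRNAs also followed the samples that stood apart within a group, but they were picked by their r over the same 15 samples.

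MiR-30a averaged 1910 ± 1667 CPM with DOX in vitro and 9845 ± 393.3 CPM in vehicle cells. It averaged 1979 ± 1186 CPM in DOX-injected hearts, 4850 ± 1853 CPM after MI and 6176 ± 525.7 CPM in age-matched controls (SD, n = 3 each). Its 5 group means stand in the same order as those of the 3 members, with both DOX groups overlapping at the low end. Let-7c ran the other way, with 36069 ± 15018 CPM with DOX in vitro and 14955 ± 1268 CPM in vehicle cells, and 30147 ± 6575 CPM in DOX-injected hearts against 14721 ± 2258 CPM in age-matched controls.

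**Figure D4:**
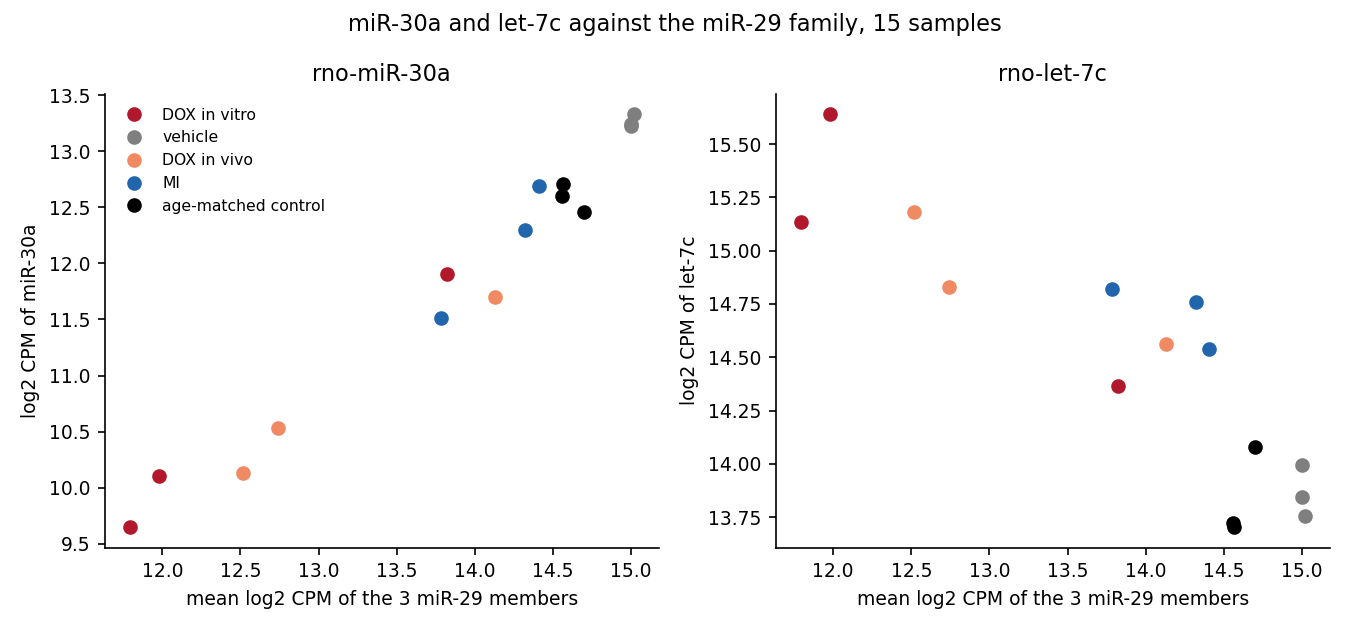
Log2 CPM of miR-30a (left) and let-7c (right) in each of the 15 samples, plotted against the mean log2 CPM of the 3 miR-29 members and coloured by group. MiR-30a runs with the family (r = 0.98) and let-7c against it (r = -0.88), with DOX in vitro samples 1 and 2 at the low end of the family and vehicle at the high end.

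MiR-29 belongs to a wider set of miRNAs reported to act on cardiac fibrosis. The list of those reported to promote it held miR-21, miR-199a-5p, miR-199a-3p, miR-214 and miR-208, of which 4 were tested. MiR-21 and both miR-199a arms also stand in the fibroblast marker list above. The list of those reported to restrain it held 11 others, namely miR-133a, miR-133b, miR-24, miR-26a, miR-101a, miR-101b and 5 of the miR-30 family, all tested. With DOX in vitro, 0 of the 11 were called as higher and 5 as lower. The median log2 change of the 11 was -0.70 against 0.27 over all tested miRNAs, of which 16.5% were called as higher and 13.8% as lower. Those with the largest change among the called were miR-30a at -2.36 (SE 0.53, adjusted p 0.00504), miR-30e at -2.29 (SE 0.68, adjusted p 0.0258), miR-133b at -1.69 (SE 0.31, adjusted p 0.000618) and miR-30d at -0.84 (SE 0.30, adjusted p 0.0326). MiR-30e had 213 and 140 CPM in samples 1 and 2 of DOX in vitro. Negative controls averaged 187 and 197 CPM in those lanes, so its level there is at the limit of the assay. MiR-133b held 47 to 107 counts with DOX in vitro, where the lane backgrounds were 41.7 to 44.8. Of the promoting list 1 was called as higher and 1 as lower. These were miR-199a-3p at 0.69 (SE 0.26, adjusted p 0.0455) and miR-21 at -0.87 (SE 0.31, adjusted p 0.0391), respectively.

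In DOX-injected hearts, miR-133b fell at -1.33 (SE 0.31, adjusted p 0.0229) and the other 10 restraining miRNAs were not called. MiR-133b held 58 to 262 counts there, where the lane backgrounds were 37.5 to 43.9. The median of the 11 was -0.71 against 0.0049 over all tested miRNAs, of which 2.75% were called as higher and 0.917% as lower. After MI, where miR-29 was not called, 3 of the 4 tested promoting miRNAs rose. They were miR-199a-3p at 2.59 (SE 0.29, adjusted p 1.72e-07), miR-199a-5p at 2.38 (SE 0.33, adjusted p 4.58e-06) and miR-21 at 0.81 (SE 0.32, adjusted p 0.0442), while miR-208 fell at -1.01 (SE 0.30, adjusted p 0.0137). MiR-199a-5p was above background in all 3 MI lanes but in no lane of age-matched controls, at 11 to 21 counts. It passed the filter through groups where it was high, so its change is set against the limit of the assay. MiR-199a-3p was above background in all 3 control lanes, but at 20 to 40 counts where the lane backgrounds were 19.6 to 36.2. Its change is therefore set against a level near that limit. Of the restraining list 2 of 11 were called as lower after MI, with a median of -0.35 over the 11. The called ones were miR-133b at -1.32 (SE 0.32, adjusted p 0.00211) and miR-30d at -0.92 (SE 0.30, adjusted p 0.0201). Of all tested miRNAs, 15.6% were called as higher after MI and 22.0% as lower, with a median of -0.03.

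Between DOX-injected hearts and MI, miR-199a-5p at -2.58, miR-199a-3p at -1.77 and miR-21 at -1.54 were called as lower in DOX-injected hearts and miR-208 as higher, at 0.91, with adjusted p of 1.16e-06, 3.11e-05, 0.000829 and 0.0222. MiR-199a-5p was above background in no DOX-injected lane, at 19 to 29 counts, so its value there is at the limit of the assay. Of the restraining list, miR-30c at 0.80 (SE 0.27, adjusted p 0.0222) was the one called. Of all tested miRNAs, 18.3% were called as higher and 13.8% as lower in this comparison. Vehicle cells had more miR-199a-3p and miR-199a-5p than age-matched controls, at 1.39 and 1.19 (adjusted p 0.00148 and 0.0141), and none of the 11 restraining miRNAs was called there, against 8.26% of tested miRNAs called as higher and 10.1% as lower. In the control lanes miR-199a-5p was again not above background, and miR-199a-3p was near it.

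G and C made up 40.9% of miR-29a, 34.8% of miR-29b and 36.4% of miR-29c, against a median of 45.5% over the 94 of 109 tested miRNAs whose mature sequence could be matched. Over the 91 of these outside the family, GC content and log2 change had a Pearson correlation of 0.05 with DOX in vitro, -0.11 in DOX-injected hearts and -0.10 after MI. This comparison across miRNAs, which share lanes and are not independent, was added after the values of the members were seen. The 36 other miRNAs with no more GC than miR-29a had a median log2 change of 0.23 with DOX in vitro and 0.16 in DOX-injected hearts. The members themselves were at -1.44 to -2.82 and at -0.53 to -1.83 in these comparisons. Any part of GC content in their changes was not tested.

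**Figure D5:**
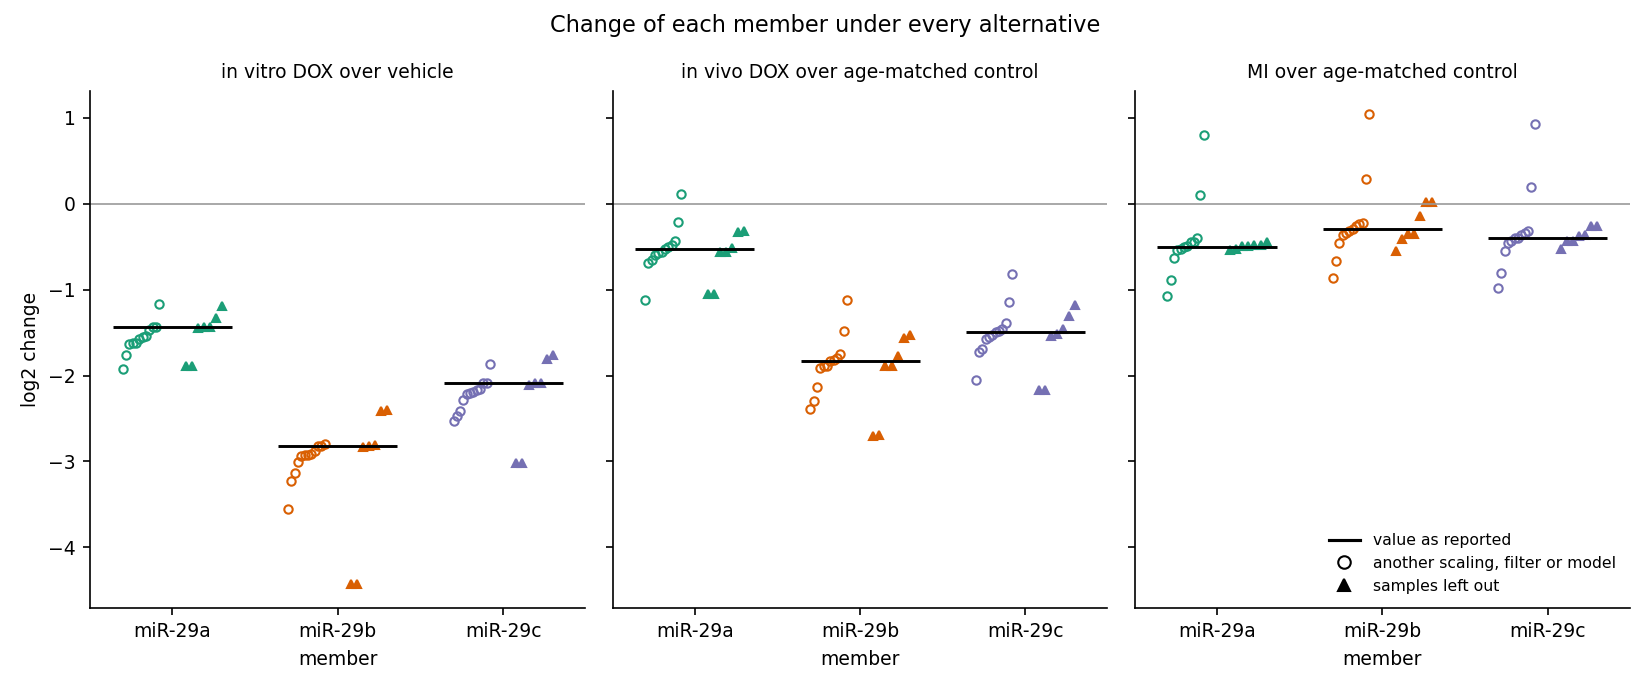
Log2 change of each member in 3 comparisons under every setting tried. The black bar is the value given above, open circles are other scalings, filters or models, and triangles are fits with samples left out. All values for DOX in vitro over vehicle lie below 0, those for miR-29b and miR-29c in DOX-injected hearts do too, and those for MI over age-matched controls lie on both sides.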

How the data were processed

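MiRNA barcodes were counted in 15 lanes of rat cardiomyocyte RNA extracted with TRIzol, per the labels' protocols. The deposited sheet of whole counts without normalization is handled under the unit of expected (estimated) counts. A further deposited sheet holds expected counts that the authors corrected for background on 3 probes, and others hold signal the authors scaled by the positive controls and by the lane's miRNA sum. The authors' deposited tables give signal means after quantile normalization, with a p-value and a score (the t statistic). Which software made them is not given here.

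A miRNA was tested when above the lane background in at least 3 of 15 lanes, which kept 109, with 58 above it in all lanes. For the main test, edgeR 4.0.16 (R 4.3.3) took the uncorrected counts with TMM factors and its robust quasi-likelihood fit over all 15 samples, 1 mean per group, with Benjamini-Hochberg adjustment within each of 6 comparisons and a threshold of 0.05. Intervals are 95%. DESeq2 1.42.0 and limma 3.58.1 (on the authors' sum-normalized signal, log2 with a pseudocount of 1) served as alternatives. The procedure was tested on simulated data with 200 changed probes, and the outcome is not given here. Those data held no sample that stood apart across miRNAs, so that test does not cover the samples that do here. Named miRNAs are the members, the 5 most and 3 least alike, and up to 4 called of the fibrosis lists per comparison. The members and lists were chosen with earlier results of these data known. In the mature table, panel names without an arm were matched to the arm usually counted under that name. Pairs of samples within groups differed by chi-square values of 1.56 to 42.2 times their degrees of freedom, and none were merged as 1 library. Vehicle pairs were at 1.60 to 1.74 and age-matched control pairs at 1.56 to 1.89, little more than counting error. Samples 1 and 2 of DOX in vitro were at 1.85, and those of MI at 2.07. Whether such pairs are separate animals or cultures, or technical repeats, the labels do not say.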

Additional observations from a re-analysis of the deposited data

How the results depend on the processing

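Each setting changed 1 choice, except that DESeq2 brought its own size factors with its model and limma ran on values the authors had scaled. The cause of a moved value was not tested. Of the 3 members, positive-control scaling called 0 and a fit of the compared groups alone called 1 for DOX in vitro against vehicle, where the value reported is 3, and subtracting the lane background called 2, without miR-29b at -2.87. These settings called 1, 11 and 26 of the 109 tested miRNAs in the same order. For DOX-injected hearts against age-matched controls, where 0 members were called, housekeeping scaling, the filter for miRNAs above background in all lanes, the fit of these groups alone and DESeq2 each called 2, and edgeR without its robust setting and limma each called 1. In that comparison, of the 109 tested miRNAs, 29 were called with housekeeping scaling, 13 with the groups alone, 21 with DESeq2, 8 without the robust setting and 4 with limma, and the filter on all lanes called 17 of 58. For DOX-injected hearts against MI, the fit of the groups alone and limma called 2, and edgeR without its robust setting and DESeq2 called 1. Of all tested miRNAs, 33.0%, 38.5%, 34.9% and 39.4% were called in the same order. The fit of the groups alone called 2 for MI and 2 for vehicle, each against age-matched controls, where it called 50.5% and 61.5% of all tested miRNAs. Leaving out the farthest sample of each injury group, 3 in all and chosen after seeing the data, called 3 members in DOX-injected hearts against age-matched controls and against MI, 3 in the difference of DOX effects, 1 for MI and 1 for vehicle. Those fits called 53, 72, 18, 68 and 54 of the 109 tested miRNAs in the same order. Leaving out 1 sample at a time gave 2 to 3 called members for DOX in vitro, 0 to 3 for DOX-injected hearts, 0 to 2 for DOX-injected hearts against MI and 0 to 3 for the difference of DOX effects. Of all tested miRNAs, 15.6% to 63.3%, 0.0% to 19.3%, 15.6% to 48.6% and 0.917% to 10.1% were called in these fits, in the same order.

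Signs turned as follows. In DOX-injected hearts against age-matched controls, miR-29a was at 0.11 with positive-control scaling. For MI against age-matched controls, the log2 changes of miR-29a, miR-29b and miR-29c were 0.80, 1.04 and 0.92 with positive-control scaling and 0.10, 0.28 and 0.20 with no filter on low counts, and miR-29b was at 0.0173 without the farthest sample of each injury group and ranged from -0.54 to 0.0156 when 1 sample was left out. For DOX-injected hearts against MI, miR-29a was at 0.23 with the lane background subtracted, 0.0445 with the authors' corrected counts and 0.13 with the filter on all lanes, and it ranged from -0.55 to 0.18 when 1 sample was left out. For vehicle against age-matched controls, miR-29a was at -0.40 with housekeeping scaling and -0.28 with the background subtracted, miR-29c at -0.10 with housekeeping scaling, and miR-29a ranged from -0.0267 to 0.12 when 1 sample was left out. When 1 sample was left out, the difference of DOX effects ranged from -0.0796 to 1.54 for miR-29c. For MI against age-matched controls, the log2 difference of the within-lane ratio then ranged from -0.17 to 0.51 for miR-29b over miR-29a, from -0.0547 to 0.24 for miR-29c over miR-29a and from -0.12 to 0.28 for miR-29b over miR-29c.

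The replicate numbers did not pair the samples: the correlations of same-numbered deviations from group means ran from -0.26 to 0.23. With the number as a replicate block, the members kept all calls, 3 for DOX in vitro and 0 elsewhere, while 31 of the 109 tested miRNAs were called for DOX in vitro in place of 33, and 1 in DOX-injected hearts in place of 4. In no comparison did every sample correlate best with its own number. At the low end the lane background limits miR-29b, which had 53 to 84 counts in 4 DOX lanes.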
